A study of Mus musculus with 6 samples.

Results

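The later hours of the response to lipopolysaccharide (LPS, a component of the bacterial cell wall) were followed in macrophages labelled knockout (KO) for Setd2, as the change in transcript levels between 12 and 24 h. Of the 17904 genes in the deposited table, the 10674 that reached 1 FPKM in the KO library at 12 h or in the KO library at 24 h were compared. FPKM counts fragments per kilobase of a transcript, scaled to depth. Each change was the difference of log2(FPKM + 1), 24 h minus 12 h, so a negative value means a lower level at 24 h, and the KO library without LPS (0 h) served as the resting level. Each genotype and time had 1 library, so no difference has a replicate error or a test, and a gene was called higher or lower by size alone, at a difference of 1 (2-fold) or more.

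The cells were bone marrow-derived macrophages from C57BL/6 mice aged 8 weeks. Marrow was cultured with M-CSF, the growth factor that drives macrophage development, for 5 days. The KO libraries were Setd2-KO at 0 h without LPS and after 12 or 24 h with 100 ng/ml LPS, and 3 wild-type (WT) libraries had the same times and dose. The allele, how it was deleted, and whether libraries share an animal or a culture are not given in the sources used here.

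Setd2 trimethylates lysine 36 of histone H3 over the bodies of transcribed genes. Macrophages sense LPS through TLR4, which turns on NF-kB and then, through secreted interferon, a second set of antiviral genes. The first genes to respond are short-lived transcripts, and the pathway also makes its own inhibitors, so the hours that follow are known for the decline of cytokine transcripts, for a change of metabolism toward glycolysis, and for the expression of genes of antioxidant defence, iron storage and tissue repair.

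Setd2 itself (gene ID 235626, GRCm38 chromosome 9, 110532500 to 110618633) was at 9.96 FPKM at rest, 9.16 at 12 h and 5.11 at 24 h in the libraries labelled KO. The WT libraries held 7.83, 8.68 and 7.51 FPKM. A gene-level value keeps the reads of a transcript that lost only some exons, so these values do not check the genotype, and the genotype rests on the labels. The late difference was -0.73 in KO, and -0.07 once a trend with transcript length was removed. Estimated depth was similar in all 6 libraries, at 21820000 to 22640000 mapped reads if reads were 50 nt long. At that depth 1 read in a transcript of 2000 nt is about 0.023 FPKM. All 10 macrophage markers were compared, with a median of -0.07 and a summed level of 3733 FPKM at 12 h and 4053 at 24 h, and the mannose receptor Mrc1 was the 1 called (lower). The table held 8 of 8 markers of B cells, 8 of 10 of T and NK cells, 6 of 7 of mast cells and 6 of 8 of erythroid cells. None of those held reached 1 FPKM at either time, and their summed levels were at most 2.42 FPKM per list. Of dendritic cell markers 4 of 8 were compared. All 8 summed to 857 FPKM at 12 h and 1913 at 24 h, of which Bst2 made up 801 and 1878. Of fibroblast markers 5 of 9 were compared, and all 9 summed to 15.2 and 16.1 FPKM. Eosinophil markers had 3 of 5 compared, and all 5 summed to 4.29 and 6.3 FPKM. Of the endothelial markers 4 of 7 were compared, and Kdr (19.7 to 4.75 FPKM) was lower.

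More genes were lower than higher at 24 h. Of the 10674 genes, 886 (8.3%) were called lower and 552 (5.17%) higher, the median difference was -0.07, and 63.8% of genes stayed within 1.5-fold. Differences past 4-fold were fewer, 78 lower and 48 higher. Of the 1438 genes called, 101 had under 10 estimated reads in the library where they were higher. Among the called genes, 48 were listed at 0 at 12 h and 51 at 24 h. In bulk RNA, fewer cells that make a transcript and less of it per cell cannot be told apart.

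**Figure D1:**
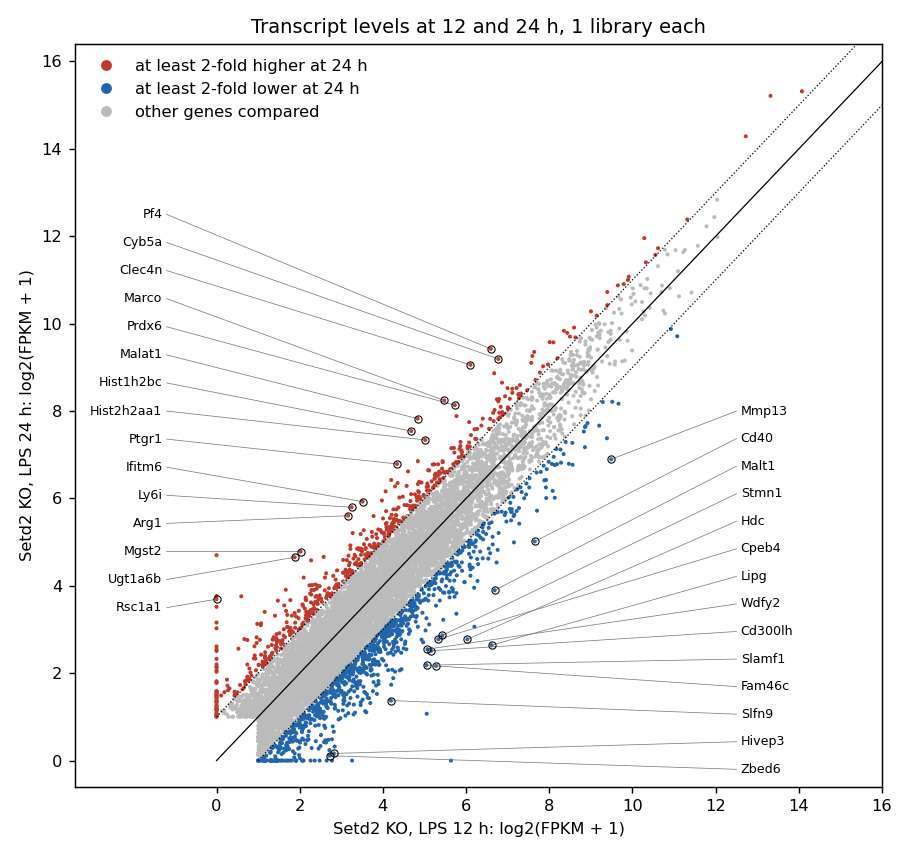
Level of each compared gene in the KO library at 12 h (x axis) and at 24 h (y axis) with LPS, both as log2(FPKM + 1); the solid line marks equal levels and the dotted lines 2-fold. The 886 genes called lower (blue) lie below and the 552 called higher (red) above the dotted lines, and the named genes at each end are ringed.

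The difference followed the length of the transcript. Over 5045 genes that averaged 10 FPKM or more in the pair, Spearman's rho across genes between the difference and the length was -0.59, a description of these 2 libraries since genes are not replicates. The median difference was 0.83 for 65 genes with transcripts up to 512 nt and 0.71 for 498 genes from 512 to 1024 nt. It was 0.30 from 1024 to 2048 nt, -0.13 from 2048 to 4096 nt, -0.47 from 4096 to 8192 nt and -0.93 for 74 genes over 8192 nt. The genes called higher had a median length of 1031 nt, those called lower 4058 nt, and all compared genes 2724 nt. Short transcripts were thus mostly higher and long ones mostly lower at 24 h. The WT pair had a rho of -0.42 over 5276 genes. Against the mean of the 6 libraries, the KO 12 h library leaned to long transcripts (rho 0.36) and the KO 24 h library to short ones (rho -0.45).

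For many lists and some genes, values are therefore also given with this trend removed, by a smooth curve over length fitted in each library. Gene values given once are as deposited, and removing the trend changes many of them, such as Mki67 from -2.33 to -1.64. With the trend removed, rho was -0.03, 605 genes (5.67%) were lower and 298 (2.79%) higher. Both ways of computing called 508 genes lower, which is 57.3% of the calls on the deposited values, and 213 higher, which is 38.6%. Length differences between the cells and between the libraries cannot be told apart here.

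**Figure D2:**
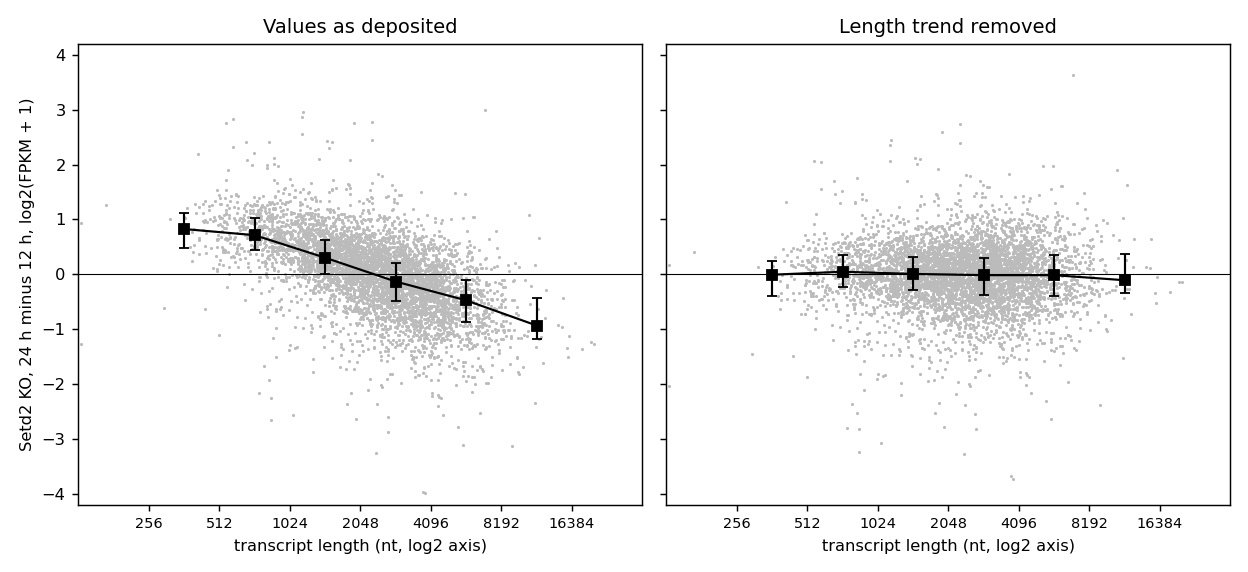
Difference between 24 h and 12 h in KO, on the log2(FPKM + 1) scale, against transcript length in nt (log axis) for genes that averaged 10 FPKM or more, as deposited (left) and with the length trend removed (right). Squares are medians and bars the quartiles of 6 length ranges; on the left the medians go from 0.83 for the shortest to -0.93 for the longest transcripts, and on the right they lie near 0.

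The 2-fold rule divides genes with nearly equal values. Just inside it, Llph went from 26.4 FPKM at 12 h to 53.9 at 24 h, and Pim1, a kinase gene, from 129 to 64.1. Just outside it, Cox17, a copper chaperone of cytochrome oxidase, went from 81.4 to 163.5 FPKM, and Cflar, an inhibitor of caspase 8, from 90.4 to 44.8. All 4 differences lie within rounding of 1.

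Of the 15 genes at the lower end, 8 were 2-fold or more above rest at 12 h and lower again at 24 h. Lipg, which encodes a secreted lipase of the endothelial type, was at 0.65 FPKM at rest, 97.0 at 12 h and 5.24 at 24 h, a difference of -3.97. Hdc, the enzyme that makes histamine (chromosome 2, 126593659 to 126624025), was at 0.45, 64.4 and 5.85 FPKM, a difference of -3.25. Mmp13, a collagenase (chromosome 9, 7272514 to 7283333), was at 10.49, 717 and 118 FPKM, a difference of -2.59. All 3 were highest in the 12 h library, and with the length trend removed their differences were -3.67, -3.28 and -2.55. Cd40, the costimulatory receptor that binds CD40 ligand, was at 3.35, 199.9 and 31.3 FPKM (-2.64). Slamf1, a receptor that binds itself on neighbouring cells, was at 0.35, 32.1 and 3.54 FPKM (-2.87). Malt1, a protease of the NF-kB pathway, was at 11.3, 102 and 13.9 FPKM (-2.79). With the trend removed, Malt1 kept a difference of -2.30.

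Some genes at this end were not above rest by 2-fold at 12 h and were below it at 24 h. Stmn1, which destabilises microtubules and is abundant in dividing cells, was at 225 FPKM at rest, 42.1 at 12 h and 6.29 at 24 h (-2.56 between the last 2). Cd300lh, a CD300 family receptor gene with close relatives, was at 56.9, 34.8 and 4.71 FPKM (-2.65). Slfn9, of the Schlafen family, was at 16.99, 17.3 and 1.59 FPKM (-2.82). Such families can share reads, so the 2 family members are uncertain. Fam46c, Cpeb4 and Wdfy2 were above rest by less than 2-fold at 12 h and had differences of -3.11, -2.56 and -2.52. Hivep3, a zinc finger transcription factor, was 2-fold or more above rest at 12 h, at 1.27, 6.07 and 0.12 FPKM (-2.66). Zbed6 was at 4.69, 5.57 and 0.08 FPKM (-2.60), about 9 estimated reads at 24 h. The exons of Zbed6, Hivep3, Wdfy2 and Stmn1 overlap other annotated genes, which could share their reads. Of the 15 genes, 8 were 2-fold or more below rest at 24 h, 5 were still 2-fold or more above it and 2 were in between.

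At the upper end, all 15 genes were 2-fold or more above rest at 24 h, and 3 of them had already been so at 12 h. Malat1, a long non-coding RNA of the nucleus (chromosome 19, 5795690 to 5802672), was at 34.6 FPKM at rest, 27.6 at 12 h and 226 at 24 h, a difference of 2.99. It is 6983 nt long, and removing the length trend took the difference to 3.63. Its exons overlap 2 other annotated genes. How RNA was selected for the libraries is not given in the sources used here, and for this non-coding RNA a difference in that step cannot be told apart from one in the cells. Receptors that recognise microbes followed. Clec4n, the fungal sensor dectin-2 (chromosome 6, 123229843 to 123247024), was at 43.5, 67.8 and 532 FPKM (2.95). Marco, a scavenger receptor (chromosome 1, 120474538 to 120505024), was at 2.58, 43.4 and 302 FPKM (2.77). With the trend removed their differences were 2.46 and 2.60.

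Pf4, the chemokine CXCL4, was at 89.9 FPKM at rest, 95.5 at 12 h and 685 at 24 h (2.83, or 2.05 with the trend removed). Pf4 is also a platelet gene. Of 6 platelet and megakaryocyte markers, 4 were compared. Pf4 made up most of the summed level of all 6, which was 116 FPKM at 12 h and 701 at 24 h. Itga2b went from 7.46 to 4.69 FPKM, Gp9 from 1.02 to 0.41 and Ppbp from 10.4 to 10.3. Arg1, the arginase of the urea cycle and of alternatively activated macrophages (chromosome 10, 24915207 to 24927470), was at 0.32, 7.97 and 47.7 FPKM (2.44, or 2.11). Prdx6, an antioxidant enzyme with phospholipase activity, was at 41.6, 52.0 and 280.2 FPKM (2.41). Ptgr1, a reductase of prostaglandins and leukotriene B4, was at 24.98, 19.2 and 109.6 FPKM (2.45). Mgst2, a glutathione transferase of the membrane, was at 3.38, 3.06 and 26.5 FPKM (2.76), and Cyb5a, the electron carrier cytochrome b5, at 149, 108 and 584 FPKM (2.42). With the trend removed, these 4 differences lay between 1.75 and 2.40.

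The other genes among the 15 carry limits. Hist1h2bc, a histone H2B gene, was at 53.9, 24.7 and 185 FPKM (2.86), and Hist2h2aa1, an H2A gene, at 25.2, 31.4 and 161 FPKM (2.32). Both have near-identical copies elsewhere in the genome. Ugt1a6b, which conjugates glucuronic acid to drugs and phenols, shares exons with 8 other Ugt1a genes. Rsc1a1 was listed at 0 at 12 h and at 11.9 FPKM at 24 h, and its exons overlap those of Ddi2. Ly6i (8.49 to 54.6 FPKM) and Ifitm6 (10.4 to 59.8 FPKM) belong to families of similar genes.

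**Figure D3:**
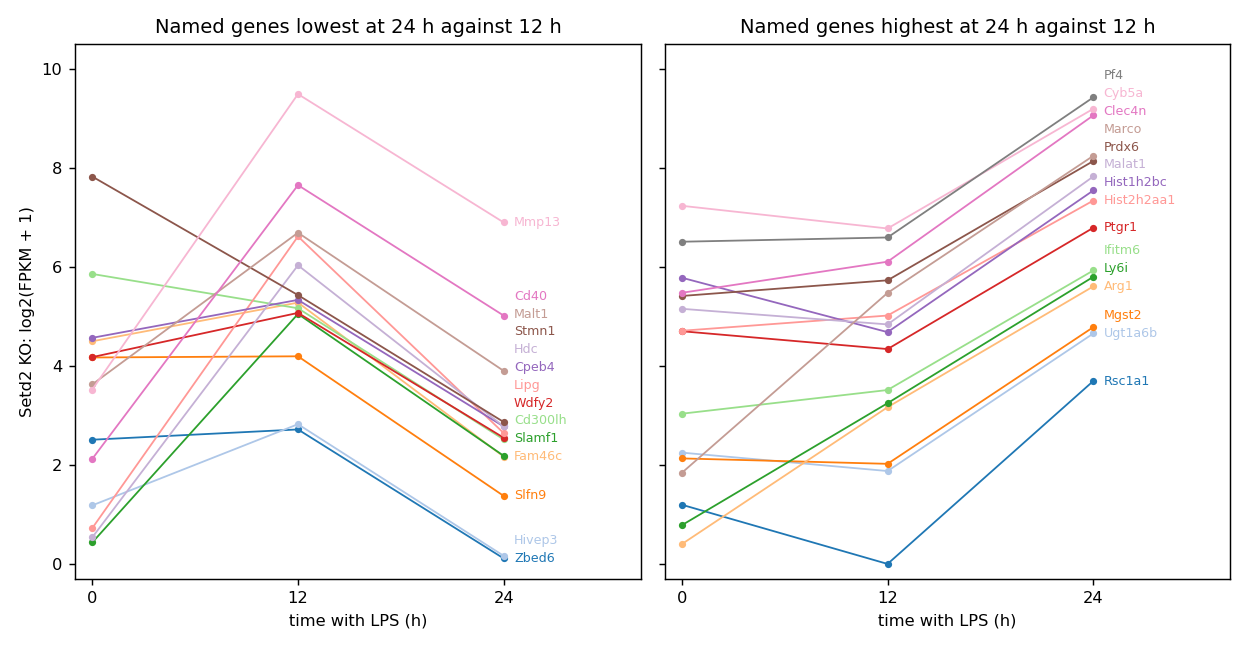
Level in KO, as log2(FPKM + 1), at 0, 12 and 24 h with LPS for the named genes lowest (left) and highest (right) at 24 h against 12 h; each point is 1 library. On the left Lipg, Hdc and Mmp13 peak at 12 h while Stmn1 declines throughout, and on the right most genes, such as Malat1 and Pf4, are near rest at 12 h and higher at 24 h.

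Gene lists by function were then described by their counts of called members and their median, to be read beside the 8.3% lower, 5.17% higher and median of -0.07 over all genes (-0.02 with the length trend removed). The lists were chosen with earlier results of these data known, and no list was tested. Of the genes of each list, only those that reached 1 FPKM in the pair are counted.

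Secreted cytokines were lower. Of 17 inflammatory cytokine genes compared, 7 were called lower and 0 higher, and the median was -0.87 with or without the length trend. Il12b, the shared subunit of interleukins 12 and 23, was at 1.25 FPKM at rest, 76.3 at 12 h and 16.3 at 24 h (-2.16). Il6 was at 0.21, 27.1 and 8.92 FPKM (-1.5), and Il1a at 2.09, 467 and 200.5 FPKM (-1.22). Each remained well above rest at 24 h. Il19, Il27, Tnfsf15 and Osm were the other members called lower. Tnf and Il1b, looked up after the values were seen, were less changed: Tnf went from 184 to 100.3 FPKM (-0.87) and Il1b from 1259 to 1164 FPKM (-0.11). In WT, 8 cytokine genes were lower and 0 higher, with a median of -0.77.

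Chemokines divided. Of 23 compared, 5 were called higher and 4 lower, and their median of 0.16 became -0.34 with the length trend removed, when 1 was higher and 7 lower. Ccl22 (279 FPKM at 12 h, 63.6 at 24 h) and Ccl17 (13.1 and 3.58 FPKM), both ligands of CCR4, were lower by 2.12 and 1.62 on the log2 scale. The interferon-induced CXCR3 ligands Cxcl9 (19.3 and 7.10 FPKM) and Cxcl11 (25.2 and 11.5 FPKM) were lower by 1.32 and 1.07. Higher were Pf4, the neutrophil attractants Cxcl3 (273 and 760 FPKM, 1.47) and Cxcl5 (2.44 and 6.47 FPKM, 1.12), and the monocyte attractants Ccl7 (360.3 and 832 FPKM, 1.21) and Ccl8 (16.5 and 35.5 FPKM, 1.06). These 5 transcripts are short (Cxcl5, the longest, has 1575 nt), and with the trend removed only Pf4 kept a difference past 2-fold.

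Among 19 receptors for chemoattractants, 3 were higher and 2 lower, and the median of -0.30 turned to 0.03 with the length trend removed, when 1 was higher and 3 lower. The formyl peptide receptors Fpr1 (0.68 FPKM at rest, 102 at 12 h, 259 at 24 h) and Fpr2 (0.92, 100.3 and 217 FPKM) were higher by 1.34 and 1.11, or 0.92 and 0.59 with the trend removed. Ltb4r1, the leukotriene B4 receptor, went from 1.65 to 8.96 FPKM (1.91, or 1.61). Ccr2, the receptor for Ccl2 and Ccl7, was at 22.1, 9.29 and 2.79 FPKM (-1.44), and Ccrl2, a non-signalling receptor that binds chemerin, at 5.09, 91.6 and 23.6 FPKM (-1.91).

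Interferon-stimulated genes were lower in part. Of 39 compared, 10 were called lower and 1 higher, 33 lay below 0, and the median was -0.59 (8 lower, 0 higher and -0.47 with the length trend removed). The guanylate-binding proteins, GTPases that attack the vacuoles of intracellular microbes, led the list. Gbp2 was at 10.95 FPKM at rest, 668 at 12 h and 165 at 24 h (-2.01), Gbp5 at 2.88, 208 and 51.7 FPKM (-1.99), and Gbp3 at 8.83, 269.8 and 71.1 FPKM (-1.91). Ifit2, which binds viral RNA, was at 21.8, 462 and 143 FPKM (-1.68). All 4 were still several-fold above rest at 24 h. The member called higher was Bst2, the tetherin that holds budding virus at the cell surface, at 254, 801 and 1878 FPKM (1.23, or 0.54 with the trend removed). In WT, 12 were lower and 0 higher, with a median of -0.50.

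The promoters of 2 of these genes are shown as examples that hold the interferon response letters. The window runs from 250 bases before to 50 after the RefSeq start in GRCm38.p6 (Gbp2 at chr3:142620413-142620712 and Gbp5 at chr3:142496684-142496983, both plus strand). Capitals mark the match to GAAANNGAA (N is any base, searched on both strands), which begins at -58 in Gbp2 and -164 in Gbp5.
Gbp2: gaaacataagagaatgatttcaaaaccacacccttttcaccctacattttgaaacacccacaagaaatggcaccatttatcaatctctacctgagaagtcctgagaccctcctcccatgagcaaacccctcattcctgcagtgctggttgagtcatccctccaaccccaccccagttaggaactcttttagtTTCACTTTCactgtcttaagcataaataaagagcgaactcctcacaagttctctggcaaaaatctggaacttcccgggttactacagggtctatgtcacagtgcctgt
Gbp5: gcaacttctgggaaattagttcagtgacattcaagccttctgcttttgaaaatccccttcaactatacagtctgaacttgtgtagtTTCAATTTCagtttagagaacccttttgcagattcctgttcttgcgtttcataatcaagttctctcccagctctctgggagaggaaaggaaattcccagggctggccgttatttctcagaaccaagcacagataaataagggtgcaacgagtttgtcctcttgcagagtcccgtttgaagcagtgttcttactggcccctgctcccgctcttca
The letters were in 19 of 36 promoters (52.8%) of 30 list genes with a promoter in the table, against 7.45% of 17159 promoters of all genes. They can overlap the purine-rich letters of ETS factors such as PU.1, and a match is a description of letters, not of binding.

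Inhibitors that the LPS pathway induces were lower too. Of 28 feedback genes compared, 11 were called lower and 0 higher, 27 lay below 0, and the median was -0.64 (12 lower and -0.59 with the length trend removed). The list also holds Ptgs2, an inducible enzyme of prostaglandin synthesis rather than an inhibitor. It was the lowest member (-2.24) and is counted again among the eicosanoid genes. Tnfaip3, the enzyme A20 that edits ubiquitin on NF-kB signalling proteins, was at 9.69 FPKM at rest, 105 at 12 h and 22.2 at 24 h (-2.20). Il1rn, the secreted antagonist of interleukin 1, was at 71.5, 2158 and 837 FPKM (-1.37). Cd274, the T cell inhibitory ligand PD-L1, was at 12.7, 280.1 and 107.5 FPKM (-1.37), and Zfp36, which destabilises cytokine transcripts, at 40.5, 266.5 and 109.6 FPKM (-1.27). The WT pair had 11 feedback genes lower and 0 higher, with a median of -0.66. The kappa B letters GGGNNTTCC, searched on both strands, were in 8 of 30 promoters (26.7%) of this list and in 6.88% of all promoters. Antigen presentation and costimulation genes held them in 4 of 16 promoters (25%), and inflammatory cytokine genes in 1 of 13 (7.69%). Of 28 genes of the TLR and NF-kB pathway, 4 were lower and 0 higher, with a median of -0.39 either way. Those 4 were Tlr9 (13.9 to 2.53 FPKM), Rel (7.28 to 1.6 FPKM), Tlr3 (22.8 to 7.48 FPKM) and Tlr2 (182 to 75.1 FPKM).

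Early response genes were called about as often as all genes compared (8.3% lower and 5.17% higher). Of 20 compared, 2 were lower and 1 higher, with a median of -0.33 (4 lower, 1 higher and -0.15 with the length trend removed). The 1 called higher was Klf2, a transcription factor that restrains macrophage activation. It was at 20.4 FPKM at rest, 4.96 at 12 h and 24.3 at 24 h (2.09), so it was back near its resting level.

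Genes for arginine use and microbial killing went both ways. Of 20, 4 were lower and 2 higher, with a median of 0.36 (3 lower, 1 higher and 0.14 with the length trend removed). Arg1 was higher, as given above, while the mitochondrial Arg2 went from 17.7 to 6.42 FPKM (-1.33) and the arginine transporter Slc7a2 from 107 to 27.3 FPKM (-1.94). Acod1, which makes itaconate, was at 19.3 FPKM at rest, 1941 at 12 h and 938 at 24 h (-1.05). Cyba, a membrane subunit of the NADPH oxidase, went from 884 to 1916 FPKM (1.12, or 0.38 with the trend removed). Of 21 genes of antigen presentation and costimulation, 4 were lower and 0 higher. Beside Cd40 these were Ciita, the master regulator of MHC class II (7.57 to 1.04 FPKM), Icosl (13.2 to 3.82 FPKM) and Cd83 (15.8 to 6.78 FPKM), and the list's median was -0.13 (-0.40 with the trend removed).

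Of 17 genes of matrix proteases and plasmin activation, 4 were lower and 1 higher, with a median of -0.28 (4 lower, 2 higher and -0.26 with the length trend removed). Mmp25, a membrane-anchored protease, went from 30.3 to 5.53 FPKM (-2.26), and Plau, the urokinase activator of plasmin, was at 313 FPKM at rest, 44.8 at 12 h and 19.0 at 24 h (-1.19 between the last 2). Mmp8, the neutrophil collagenase, was the member called higher, at 12.2, 12.7 and 47.4 FPKM (1.82). Neutrophil markers beside it were low. Of 11, 5 were compared, with 2 higher and 1 lower, and the summed level over all 11 was 43.3 FPKM at 12 h and 67.1 at 24 h. S100a8 made up most of it (24.96 and 52.9 FPKM), Ly6g went from 0.20 to 2.28 FPKM and Ngp from 3.02 to 0.36 FPKM. Their part in the Mmp8 value was not tested.

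Genes for the uptake of dead cells and complement gave 4 higher and 4 lower of 21, with a median of 0.28 (0.27 with the length trend removed, when 0 were higher and 3 lower). Axl, a receptor for dying cells, was at 75.3 FPKM at rest, 141 at 12 h and 30.9 at 24 h (-2.16). Anxa1, a phospholipid-binding protein that acts on formyl peptide receptors, was at 536 FPKM at rest, 287 at 12 h and 139 at 24 h (-1.04), while those receptors, Fpr1 and Fpr2, were higher. C1qa, a chain of complement C1q, went from 73.5 to 164 FPKM (1.14, or 0.57 with the trend removed) and Cfp, properdin, from 202 to 418 FPKM (1.05, or 0.77). Of 16 genes of alternative activation and repair, 2 were lower and 0 higher, with a median of -0.18 (1 lower and 1 higher with the trend removed). Mrc1 was at 39.8, 11.4 and 1.71 FPKM (-2.20) and Thbs1, the matrix protein thrombospondin 1, at 8.72, 335 and 156 FPKM (-1.10, or -0.55 with the trend removed).

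Genes of cholesterol synthesis and uptake were lower as a list. Of 24 compared, 10 were called lower and 0 higher, 20 lay below 0, and the median was -0.90. With the length trend removed, 5 were lower and 0 higher, with a median of -0.70. Hmgcs1, which makes the HMG-CoA used for sterols, was at 33.8 FPKM at rest, 23.3 at 12 h and 7.76 at 24 h (-1.47). Idi1, of the isoprenoid step, was at 29.0, 12.2 and 4.34 FPKM (-1.31). Srebf2, the transcription factor of the pathway, was at 52.9, 31.6 and 14.9 FPKM (-1.04). With the trend removed, Hmgcs1 (-1.25) and Idi1 (-1.18) kept the 2-fold size, and Srebf2 (-0.58) did not. In WT the median was -0.27 with 1 lower and 0 higher, and the median of the gene-by-gene differences, KO minus WT, was -0.54 (-0.47 with the trend removed). This contrast of the 2 pairs has no replicate check.

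The Hmgcs1 promoter is shown because it holds the sterol response letters TCACNCCAC (N is any base, both strands searched), marked in capitals at -137 (chr13:119690101-119690400, plus strand, GRCm38.p6, from RefSeq).
Hmgcs1: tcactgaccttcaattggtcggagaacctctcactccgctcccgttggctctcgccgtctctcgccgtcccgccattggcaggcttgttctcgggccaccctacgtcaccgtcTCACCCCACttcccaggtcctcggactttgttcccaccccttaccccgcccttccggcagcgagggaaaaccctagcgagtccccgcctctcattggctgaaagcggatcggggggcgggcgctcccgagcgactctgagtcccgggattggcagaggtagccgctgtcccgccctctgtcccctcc
It was the 1 match among 20 promoters (5%) of 17 list genes, against 1.22% of all promoters. The fatty acid synthesis list also had 1 match, among 16 promoters (6.25%). These letters cover 1 spelling of the element, so the other promoters may hold variants that were not searched.

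The other lipid lists had no common direction, and their calls are to be read beside the 8.3% lower and 5.17% higher over all genes. Of 13 genes of fatty acid synthesis, Fasn, the fatty acid synthase, was lower (3.68 to 1.22 FPKM, -1.08, or -0.49 with the length trend removed) and Me1, the malic enzyme that supplies NADPH, was higher (3.46 to 9.59 FPKM, 1.25, or 1.43). Of 16 LXR targets and cholesterol efflux genes, 1 was lower and 0 higher (1 each way with the trend removed). The lower one was the efflux pump Abca1, at 1.87 FPKM at rest, 22.4 at 12 h and 9.88 at 24 h, whose difference of -1.10 became -0.28 with the trend removed. Of 18 genes of lipid uptake, droplets and lipases, 2 were lower and 2 higher (4 and 1 with the trend removed). Lipg was given above, and Dgat2, which makes triglyceride, went from 13.95 to 3.57 FPKM (-1.71), while the lipid chaperone Fabp5 went from 386 to 960.5 FPKM (1.31, or 0.71 with the trend removed). Of 21 genes of fatty acid oxidation none passed 2-fold in either direction, and differences lay between -0.63 (Cpt1a) and 0.87 (Eci1).

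Eicosanoid genes had calls in both directions. Of 17, 4 were higher and 2 lower, with a median of 0.21 (0.0059 with the length trend removed). Ptgs2, the inducible cyclooxygenase that commits arachidonic acid to prostaglandins, was at 0.67 FPKM at rest, 72.2 at 12 h and 14.5 at 24 h (-2.24). Hpgds, which makes prostaglandin D2, was at 55.7, 20.0 and 6.96 FPKM (-1.40). Higher were the reductase Ptgr1, Pla2g7, which breaks down platelet-activating factor (156 to 385 FPKM, 1.30), the prostaglandin E2 receptor Ptger2 (4.36 to 11.5 FPKM, 1.22), and Alox5ap, the partner of 5-lipoxygenase (153 to 334 FPKM, 1.12, or 0.67 with the trend removed).

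Many genes of glycolysis were higher. Of 27 glycolysis and hypoxia genes, 10 were called higher and 0 lower, and the median was 0.62. Of the members, 20 lay above 0 and 7 below it, the lowest at -0.83. With the length trend removed, 7 were higher and 0 lower, with a median of 0.57. Only called members are followed here, so steps whose genes were not called are left out. In order of the reactions, Gpi1 went from 188 FPKM at 12 h to 548 at 24 h (1.54), Pfkl from 49.04 to 141 (1.5), Aldoa from 960.5 to 2154 (1.16) and Tpi1 from 257 to 763 (1.57). Further down, Pgk1 went from 395 to 822 FPKM (1.06), Eno1 from 672 to 1691 (1.33), Pkm from 1567 to 3385 (1.11) and Ldha from 563 to 1161 (1.04). The lactate exporter Slc16a3 was at 43.1 FPKM at rest, 108 at 12 h and 298 at 24 h (1.45). At 12 h the enzymes Gpi1, Aldoa and Eno1 were below their resting values of 247, 1092 and 758 FPKM. With the trend removed, Pgk1 (0.86), Aldoa (0.83) and Ldha (0.73) fell short of 2-fold, while Pfkl was at 1.82. WT had a similar median, 0.62, with 1 called higher and 0 lower. The hypoxia response letters TACGTG were in 5 of 36 promoters (13.9%) of the list and in 3.5% of all promoters. The reference genes, a list that shares Pgk1 and Gapdh with this one, held them in 3 of 13 promoters (23.1%). They were also in 3 of 20 promoters (15%) of the mitosis list and 3 of 22 (13.6%) of the DNA replication list. Fatty acid oxidation genes held them in 0 of 17.

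The oxidative phosphorylation list depended on length, and the list of the tricarboxylic acid cycle did so little. Of 34 nuclear genes of oxidative phosphorylation, 6 were higher and 0 lower, with a median of 0.71. Their transcripts are short, and with the length trend removed 0 were called either way and the median was 0.17. Ndufa2, of complex I, went from 57.3 to 156 FPKM (1.43, or 0.65 with the trend removed). Among 22 genes of the tricarboxylic acid cycle, 1 was higher and 0 lower, with a median of 0.18 (the same counts and 0.13 with the trend removed). It was Idh1, the cytosolic isocitrate dehydrogenase, which went from 19.0 to 47.9 FPKM (1.29, or 1.24) and was at 53.3 FPKM at rest.

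Of 22 NRF2 targets and metal-stress genes compared, 13 were higher and 0 lower, and the median was 1.06. With the length trend removed, 6 were higher and 0 lower, with a median of 0.75. The WT pair had 6 higher and 0 lower, with a median of 0.79 (0.67 with the trend removed). NRF2 is the transcription factor that turns on antioxidant genes when its inhibitor KEAP1 is oxidised. Prdx1, a peroxidase, was at 766 FPKM at rest, 1245 at 12 h and 3977 at 24 h (1.67). Slc48a1, a haem transporter of the phagolysosome, was at 136, 116 and 400.4 FPKM (1.78). The glutathione enzymes Gss (7.23 to 18.7 FPKM, 1.26) and Gclm (60.6 to 124 FPKM, 1.02) were higher, with Nqo1 (3.89 to 9.78 FPKM, 1.14), the iron exporter Slc40a1 (4.49 to 12.0 FPKM, 1.24) and the pentose phosphate enzymes Pgd (292 to 589 FPKM, 1.01) and Taldo1 (249 to 534 FPKM, 1.10). The metallothioneins Mt1 (127 to 367 FPKM, 1.53) and Mt2 (51.3 to 141 FPKM, 1.45) have transcripts of 549 and 511 nt, and their differences were 0.73 and 0.63 with the trend removed. Those of Prdx1 (1.62), Slc48a1 (1.79), Me1 (1.43), Slc40a1 (1.45), Gclm (1.55) and Gss (1.08) stayed past 2-fold.

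The ferritin chains in this list were among the most abundant transcripts. Fth1 was at 11198 FPKM at rest, 17244 at 12 h and 40810 at 24 h (1.24), and Ftl1 at 12657, 6762 and 19973 FPKM (1.56). Neither passed 2-fold with the trend removed (0.76 and 0.95). With Saa3, an acute phase protein looked up after its values were seen (61.4, 10221 and 37989 FPKM), they summed to 34228 FPKM at 12 h and 98772 at 24 h. The share of the FPKM total taken by the 10 most abundant genes went from 12.7% to 22.9%. Ferritin genes have many processed copies in the genome, so part of their reads could be placed elsewhere.

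The promoters of Prdx1 (chr4:116685349-116685648) and Gclm (chr3:122245307-122245606), both plus strand in GRCm38.p6, are shown because their genes kept the 2-fold size with the trend removed and both hold the antioxidant response letters TGACNNNGC. Capitals mark the match on either strand, which begins at -133 in Prdx1 and -134 in Gclm.
Prdx1: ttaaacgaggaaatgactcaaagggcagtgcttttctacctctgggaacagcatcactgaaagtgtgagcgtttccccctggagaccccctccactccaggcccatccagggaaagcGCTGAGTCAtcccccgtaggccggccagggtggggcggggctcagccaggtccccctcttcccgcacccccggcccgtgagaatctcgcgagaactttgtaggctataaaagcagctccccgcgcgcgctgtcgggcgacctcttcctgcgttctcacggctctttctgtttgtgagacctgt
Gclm: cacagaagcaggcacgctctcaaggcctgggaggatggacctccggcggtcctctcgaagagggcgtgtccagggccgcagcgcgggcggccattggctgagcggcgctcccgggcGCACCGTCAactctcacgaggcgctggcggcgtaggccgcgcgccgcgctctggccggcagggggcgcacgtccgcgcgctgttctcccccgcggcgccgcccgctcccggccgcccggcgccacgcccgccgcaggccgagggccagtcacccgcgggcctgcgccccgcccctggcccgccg
The letters, which can overlap the AP-1 motif TGANTCA, were in 8 of 22 promoters (36.4%) of 17 list genes and in 14.05% of all promoters. Their share was not particular to this list. H3K36 methylation enzymes held them in 4 of 11 promoters (36.4%) and TGF-beta and ID genes in 6 of 17 (35.3%), while fatty acid oxidation genes held them in 0 of 17. This motif was added after the data were seen.

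Other stress lists had no common direction. Of 24 genes of ATF4 and the unfolded protein response, 3 were lower and 2 higher, with a median of -0.0026 whose sign changed with the scaling (2 lower and 1 higher with the length trend removed). The serine synthesis enzymes Psat1 (35.9 FPKM at rest, 15.9 at 12 h, 3.53 at 24 h) and Phgdh (60.4, 15.4 and 5.81 FPKM) were lower by 1.90 and 1.27 on the log2 scale, and Atf5, a stress transcription factor, went from 33.0 to 99.2 FPKM (1.56). Of 22 p53 targets and apoptosis genes, 3 were lower and 2 higher, with a median of 0.02 that was -0.24 with the length trend removed, when 4 were lower and 1 higher. Pmaip1, the BH3-only protein Noxa, went from 18.8 to 4.63 FPKM (-1.81).

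Genes of cell division were lower still than at 12 h. Of 23 mitosis genes, 14 were called lower and 0 higher, all 23 lay below 0, and the median was -1.11 (14 lower and -1.13 with the length trend removed). Mki67, the proliferation antigen Ki-67, was at 53.7 FPKM at rest, 13.5 at 12 h and 1.88 at 24 h (-2.33). Top2a, topoisomerase II alpha, was at 73.2, 5.93 and 0.72 FPKM (-2.01), and the cyclin Ccnb2 at 38.1, 2.90 and 0.21 FPKM (-1.69), about 94 and 7 estimated reads at the last 2 times. Of 21 genes of DNA replication, 8 were lower and 0 higher, with a median of -0.91 (8 and -0.87). Rrm2, a subunit of the enzyme that makes deoxynucleotides, was at 71.7, 4.23 and 0.36 FPKM (-1.94), and Mcm5, of the replicative helicase, at 64.4, 9.44 and 2.15 FPKM (-1.73). For these genes, most of the distance from rest in FPKM was thus already covered at 12 h, which need not hold on the log2 scale. At such low levels the added 1 FPKM of the log scale makes the late differences smaller than the ratios of the FPKM. In WT the medians were -1.34 for mitosis, with 18 lower and 0 higher, and -1.33 for replication, with 16 lower and 0 higher. The E2F letters TTTGGCGC were in 4 of 22 promoters (18.2%) of the replication list and in 0.816% of all promoters.

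Histone genes went the other way. Of 14 compared, 7 were called higher and 0 lower, and the median was 1.10 (7 higher, 1 lower and 0.92 with the length trend removed). Beside Hist1h2bc and Hist2h2aa1, Hist1h4i went from 1.78 to 11.6 FPKM (2.18), the linker histone Hist1h1c from 10.04 to 35.3 FPKM (1.72) and Hist2h3c2 from 3.76 to 13.1 FPKM (1.57). Hist1h2be (0.08 to 1.81 FPKM) and Hist1h4h (listed at 0 at 12 h, 2.52 FPKM at 24 h) rest on few reads, about 4 for the first at 12 h. In WT, 2 were higher and 0 lower, with a median of 0.38, and the median of the KO minus WT differences was 0.42 (0.37 with the trend removed). Near-identical histone genes can exchange reads, so single members are uncertain. Most canonical histone transcripts lack a poly(A) tail, and since the selection of RNA is not given, a difference in that step cannot be told apart from one in the cells.

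Setd2 belongs to a group of enzymes that add or remove methyl groups at lysine 36 of histone H3. Of 12 compared, 1 was lower and 0 higher, with a median of -0.60. The member called was Ash1l, a methyltransferase with a transcript of 11268 nt, at 5.76 FPKM at rest, 5.67 at 12 h and 1.94 at 24 h (-1.18). Without the length trend it was at -0.47 and the list's median at -0.04, and with the GC trend removed as well the median's sign changed. Of 14 TGF-beta and ID genes, 2 were lower and 0 higher, with a median of -0.56 (5 lower, Id3 and Inhba among them, and -0.52 with the trend removed). Gdf15, a stress-induced cytokine of the TGF-beta family, went from 44.8 to 14.9 FPKM (-1.52) and the receptor Tgfbr1 from 19.2 to 6.13 FPKM (-1.5).

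Of 27 lysosome genes, 1 was higher (Ctsz, a cathepsin, 1498 to 3043 FPKM, 1.02, or 0.66 with the length trend removed) and 1 lower (Atp6v0d2, a proton pump subunit, 17.3 to 6.54 FPKM, -1.28), with a median of 0.30, or 0.15 with the trend removed. No ribosomal protein gene of 32 passed 2-fold, and their median of 0.37 became -0.20 with the length trend removed. The 16 reference genes had a median of 0.11, or -0.06 with the trend removed. Polr2a, the large subunit of RNA polymerase II with a transcript of 6740 nt, went from 37.8 to 10.7 FPKM (-1.73, or -1.13), and Gapdh, a glycolytic enzyme often used as a reference, from 1757 to 3304 FPKM (0.91, or 0.50).

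**Figure D4:**
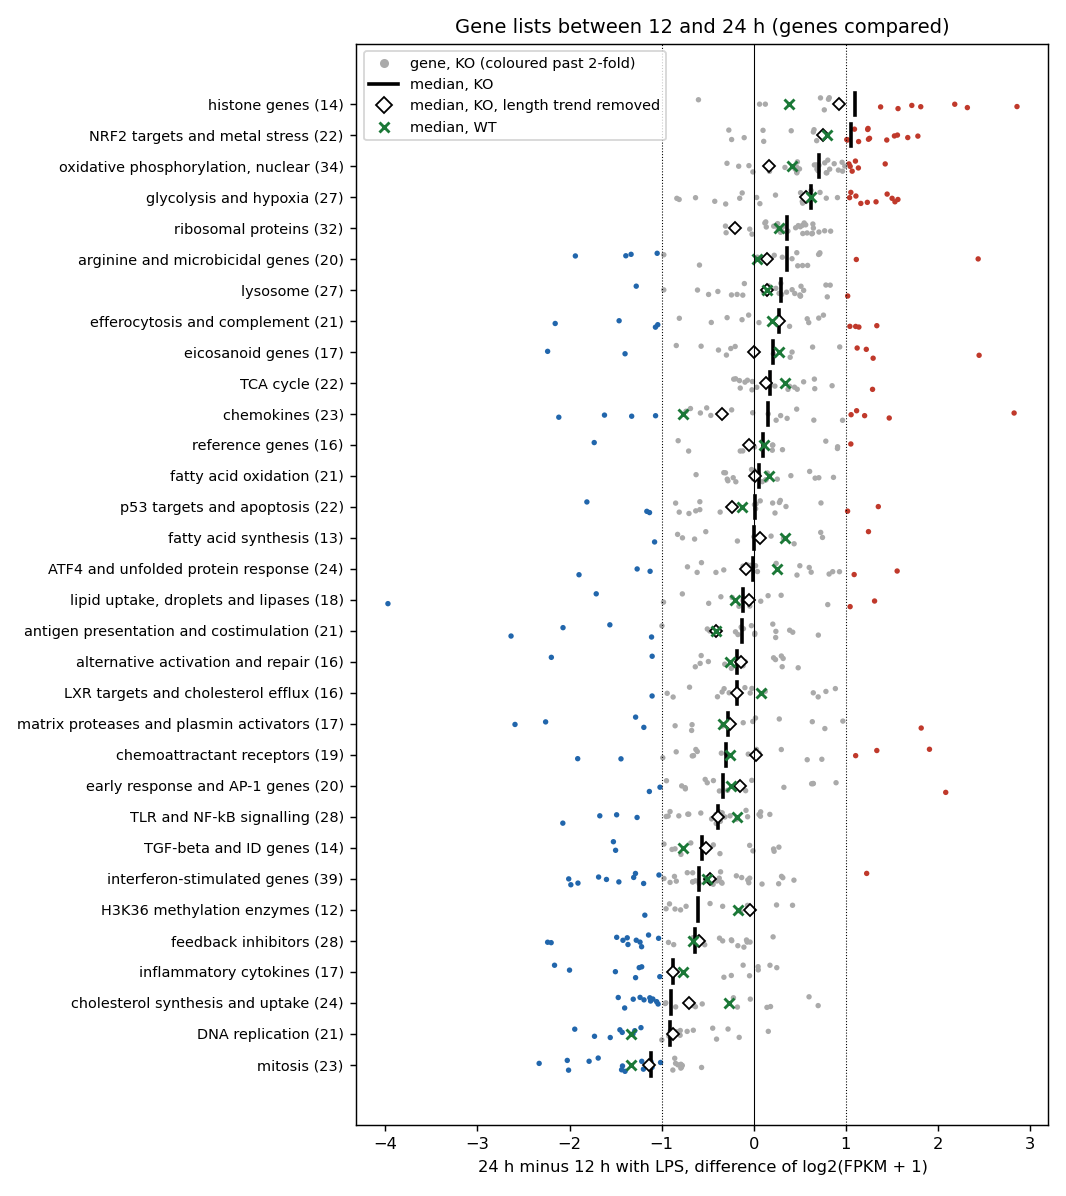
Difference between 24 h and 12 h, on the log2(FPKM + 1) scale, for each compared member of 32 gene lists (dots, KO, coloured past 2-fold), with the list's median in KO (bar), in KO with the length trend removed (diamond) and in WT (cross); the number compared is in brackets. Mitosis and DNA replication lie lowest and histone and NRF2 genes highest, and the diamond lies furthest from the bar for short (ribosomal, oxidative phosphorylation) and long (H3K36) transcripts.

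The same interval in the WT libraries, which share no library with the KO pair, gave fewer calls. Of 10642 genes, 438 (4.12%) were lower and 210 (1.97%) higher. Among the 10352 genes compared in both genotypes, 77.2% had differences of the same sign, and Spearman's rho across genes was 0.73, or 0.68 with the length trend removed. The spread of the differences was wider in KO, with an SD across genes of 0.68 against 0.51 in WT (0.59 and 0.49 with the trend removed). Among those genes, 263 were lower in both, which is 31.3% of the KO and 64.8% of the WT lower calls made within them. Those higher in both numbered 117, or 22.9% and 61.6% of the higher calls made within them. With 1 library each, no difference between the genotypes is tested, and a difference of the cultures or libraries cannot be told apart from the genotype.

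The KO difference minus the WT difference was 1 or more for 218 (1.99%) and -1 or less for 222 (2.02%) of 10964 genes. After removal of the length trend, 165 and 157 of these were still called. At the higher end were secreted factors whose level was lower at 24 h in WT and not in KO. Csf3, the growth factor G-CSF, was at 10.2 FPKM at 12 h and 10.6 at 24 h in KO, and at 14.6 and 0.79 in WT, so that the KO change exceeded the WT change by 3.18. Ccl7 (chromosome 11, 82045712 to 82047525) was at 360.3 and 832 FPKM in KO and 91.8 and 23.1 in WT (3.15, or 2.80 with the trend removed). Its neighbour Ccl2 (chromosome 11, 82035577 to 82037452), the other main monocyte attractant, was at 1041 and 1638 FPKM in KO and 300.2 and 108 in WT (2.12, or 1.78). At rest, Ccl7 and Ccl2 were at 82.5 and 282 FPKM in KO and 1.06 and 11.7 in WT. The whole chemokine list had a median of 0.95 for the KO minus WT difference, or 0.60 with the trend removed.

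The inhibitors of DNA binding Id1 and Id3, which respond to BMP and TGF-beta, stood beside them. Id1 was at 14.96 FPKM at 12 h and 17.6 at 24 h in KO and at 23.7 and 2.20 in WT (3.17). Id3 was at 37.2 and 18.5 FPKM in KO and at 38.0 and 2.52 in WT (2.50). In both genes the KO and WT levels were within 2-fold at 12 h and further apart at 24 h. Upp1, which splits uridine, was at 30.7 and 56.9 FPKM in KO and 17.8 and 8.47 in WT (1.86). Hist2h3c2 (2.20), Hist2h2aa1 (2.08) and Rsc1a1 (2.86) carry the limits given above. Rps27rt ranked first by size, but it was listed at 0 in all KO libraries and read only in the WT 12 h library (11.7 FPKM).

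At the lower end, the KO level was lower at 24 h while the WT level was steadier or higher. Tlr9, the receptor for bacterial DNA, was at 13.9 and 2.53 FPKM in KO and 7.50 and 7.14 in WT (-2.01). Mob1a, a coactivator of Hippo pathway kinases, was at 53.5 and 9.27 FPKM in KO and 60.4 and 41.6 in WT (-1.88). Ern1, the IRE1 sensor of unfolded protein, was at 7.82 and 1.40 FPKM in KO and 7.75 and 5.97 in WT (-1.55). Cxcr4, the receptor for CXCL12, was at 14.3 and 9.01 FPKM in KO and 19.4 and 44.1 in WT (-1.76). Gas6, a ligand of Axl, was at 28.2 and 15.7 FPKM in KO and 13.9 and 26.0 in WT (-1.67), and Ednrb, an endothelin receptor, at 9.63 and 6.28 in KO and 9.37 and 20.0 in WT (-1.57). Fam129a, Klhl24, Ccng2 and Exoc4 made up the 10, from -1.86 to -1.57. Without the length trend, all 10 kept a size past 2-fold, from -1.90 (Tlr9) to -1.33 (Ern1).

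**Figure D5:**
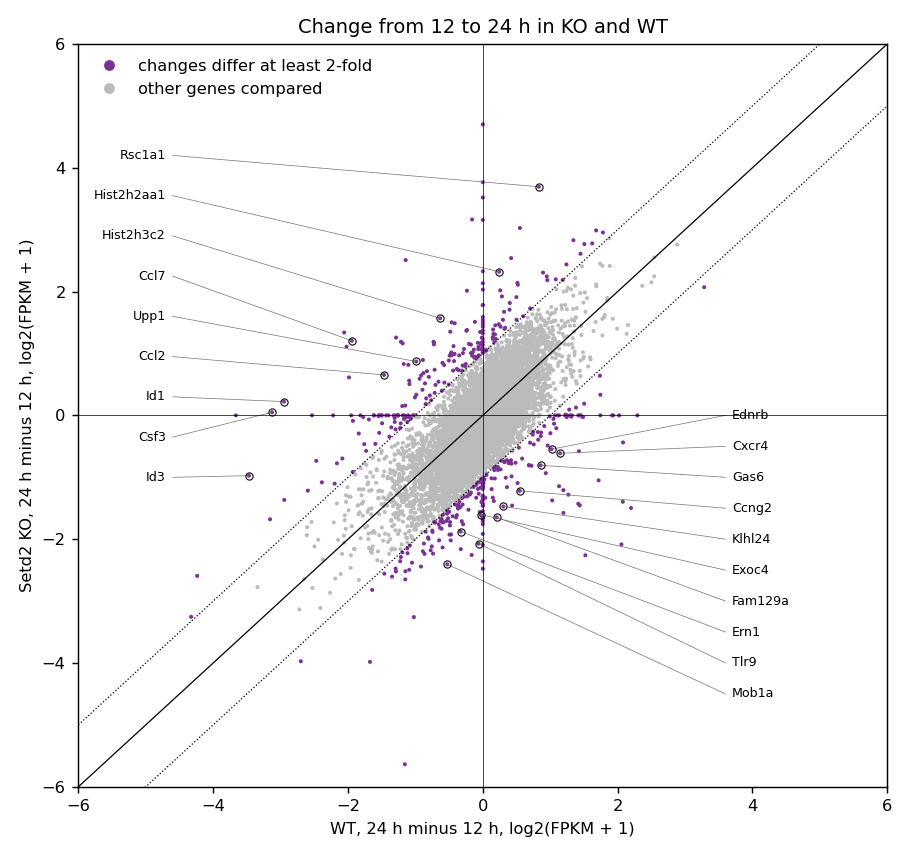
Difference between 24 h and 12 h in KO (y axis) against that in WT (x axis), both on the log2(FPKM + 1) scale, 1 point per gene; dotted lines mark a 2-fold difference between the 2 changes, and named genes are ringed. Csf3, Id1, Ccl7 and Ccl2 lie to the left of the band, lower in WT at 24 h and not in KO, and Tlr9 and Mob1a lie below it.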

How the data were processed

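RNA from 6 libraries of mouse macrophages, 1 per genotype and time, was sequenced on the BGISEQ-500 platform, per the labels. The deposited table holds FPKM per gene with 2 decimals, computed by the authors; per the submitters' processing notes the tools were Bowtie2 and RSEM with the build GRCm38. Versions, settings, how RNA was selected and whether strand was kept are not given in the sources used here. The 1 row of 17905 without a gene name was left out, 25 symbols that read as dates were replaced by way of their gene IDs, and 2 cells of the KO 0 h column (Cd36 and Cers5) hold no number.

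The difference was log2(FPKM + 1) at 24 h minus 12 h, over genes with at least 1 FPKM in either library, called at a size of 1 or more. The pseudocount of 1 understates the change of weakly expressed genes. No test was made. Depth was estimated per library from the spacing of low FPKM values, which are multiples of 1 read (score of the spacing 0.438 to 0.531, against 0.0733 to 0.104 with shuffled lengths). Coordinates came from RefSeq for GRCm38. GENCODE M21 gave the transcript length of 99.1% of the compared genes. To remove the length trend, the log2 ratio of each library to the mean of all 6 was smoothed over log2 length by lowess with a span of 0.3, on genes averaging 10 FPKM or more, and the centred curve was subtracted.

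Genes were named by rank among those called that reached 5 FPKM: the 15 highest and 15 lowest in KO, the 10 highest and 10 lowest for KO minus WT, the called members and up to 4 with the largest difference of each list, and 5 genes on each side of the threshold. Predicted genes, clones, small RNA genes and pseudogenes were counted and not named (101 of the higher and 94 of the lower calls), and a few named by these rules are not reported here. The members and the gene lists were chosen with earlier results of these data known. Alternatives were pseudocounts of 0.1 and 5, no minimum or 5 FPKM, rules of 1.5-fold and 3-fold, median-of-ratios and trimmed-mean factors, and removal of the length trend; removal of length and GC trends together was chosen after seeing the data. The scripts were tested on simulated data. Python 3.11.15, pandas 2.3.3, numpy 2.4.6, scipy 1.17.1, statsmodels 0.14.6 and matplotlib 3.10.9 were used.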

Additional observations from a re-analysis of the deposited data

Results flagged for a closer look

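Ccl7, a monocyte-attracting chemokine, was higher at 24 h than at 12 h in the KO libraries (360.3 and 832 FPKM, a difference of 1.21 on the log2(FPKM + 1) scale) and lower in the WT libraries (91.8 and 23.1 FPKM, -1.94). It stood out because both changes passed 2-fold in opposite directions, the gene was among the 10 with the largest excess of the KO over the WT change, and the 2 changes differed by 3.15. Among the 10352 genes compared in both genotypes, 7 were called higher in KO and lower in WT, and 12 the reverse. Ccl7 was the only one of these of a kind that is named and with 5 FPKM or more in any of the libraries at 12 or 24 h. The difference between the Ccl7 changes was not tested, since each group had 1 library. With the length trend removed the KO change was 0.52 and the WT change -2.28, so the opposite signs held and the KO change no longer passed 2-fold.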

How the results depend on the processing

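The counts depended on the pseudocount and on the rule of size. In KO, 886 lower and 552 higher calls became 1384 lower with a pseudocount of 0.1, and 299 lower and 247 higher with 5. The 1.5-fold rule gave 2253 lower and 1615 higher, and the 3-fold rule 208 and 86. Removing the length trend left 298 higher, 316 with trimmed-mean factors as well, and removing length and GC trends left 577 lower and 294 higher. In WT, 438 lower and 210 higher became 672 and 402 with a pseudocount of 0.1, 162 and 81 with 5, 1134 and 903 at 1.5-fold and 112 and 41 at 3-fold, and a minimum of 5 FPKM left 285 lower. For KO minus WT, 222 lower and 218 higher became 571 and 335 with a pseudocount of 0.1, 26 and 72 with 5, 1183 and 787 at 1.5-fold, 42 and 60 at 3-fold, and 123 and 122 with a minimum of 5 FPKM. The remaining counts stayed within 1.5 times. Of 207 named genes called in KO, 58 lost the call with the length trend removed, 79 with a pseudocount of 5, 10 with trimmed-mean and 3 with median-of-ratios factors. The median of a list changed sign with the length trend removed for chemokines, chemoattractant receptors, ribosomal proteins, reference genes and p53 targets, with length and GC trends removed also for fatty acid oxidation, eicosanoid and H3K36 genes, and under other settings for ATF4, p53, efferocytosis, fatty acid synthesis or eicosanoid genes, whose medians lay near 0 or changed with the genes admitted. The trend with length had a rho of -0.58 to -0.59 under other minimum levels and with the longest transcript. The cause of these shifts was not tested. No paired analysis was possible because each group held 1 library, so a replicate number pairs nothing. For the same reason no library could be left out.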
